A study of Drosophila melanogaster with 6 samples.

Results

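The peaks described here lie on U and Uextra, the pseudo-chromosomes of the Drosophila melanogaster build dm3 that collect scaffolds not placed on any chromosome arm. Every row of both deposited peak lists with chrU or chrUextra as its chromosome was taken, which gave 330 of the 8788 ROW peaks and 134 of the 4781 peaks for BEAF-32, 464 of 13569 in all. By scaffold collection, U held 167 ROW and 65 BEAF-32 peaks and Uextra held 163 ROW and 69 BEAF-32 peaks. The study mapped both proteins by sequencing immunoprecipitated chromatin of S2 cells, a cultured line of embryonic origin for which the labels state no treatment. ROW was precipitated in 3 samples and BEAF-32 in another 3, and their titles all begin with con, which was not interpreted. Titles define the groups, since the antibody label of the 3 samples titled for BEAF-32 reads BEAF-32, BEAF-33 and BEAF-34 in turn. Each antibody has 1 peak list for its 3 samples, so no spread between samples could be computed and no test was run. Intervals beside shares are 95% Wilson intervals, those of differences are 95% Newcombe intervals, and those of medians come from order statistics. They cover counting error only, and peaks of 1 list are not independent replicates.

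ROW carries zinc fingers and AT-hooks and works in a complex with HP1c, a relative of the heterochromatin protein HP1. BEAF-32 is one of the fly's insulator proteins and sits at domain boundaries, often close to the promoters of active genes. Much of the unplaced sequence is repeat-rich heterochromatin that could not be joined to an arm, and Uextra gathers the smaller pieces of lower quality. Scaffolds were strung together in both collections, so a distance between peaks can span a join and is then no distance in the cell. No dm3 sequence or annotation was used here, so peaks are given by position, counted from 1, and not by gene or base sequence.

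The 2 antibodies differed in where their strong peaks lay. Strength is the fold of the signal at the summit, the highest point of a peak, over local background, as the authors deposited it, and it was compared only within a list. ROW peaks of at least 16-fold, called strong from here on, made up 35 of 330 peaks on U and Uextra, or 10.6% (7.73 to 14.4), against 383 of 8135 on the arms, or 4.71% (4.27 to 5.19) and 4.76% of the whole ROW list. The difference was 5.90 percentage points (2.98 to 9.71). For BEAF-32 it ran the other way, with 8 of 134 peaks on U and Uextra, 5.97% (3.06 to 11.3), against 1395 of 4530 on the arms, 30.8% (29.5 to 32.1), where the whole list had 29.4%. That difference was -24.8 percentage points (-28.0 to -19.3). Sequences assembled as heterochromatin, named Het in the files, held no ROW peak of this strength among 316, which allows a share of up to 0.949% (3 counts of the total), and 4 BEAF-32 peaks among 108.

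Uextra held the stronger peaks of the 2 collections. Median ROW fold was 2.89 on U (interquartile range 2.11 to 5.03) and 4.42 on Uextra (2.99 to 9.90), beside 2.25 on the Het sequences and 4.16 on the arms. Strong ROW peaks numbered 12 of 167 on U, or 7.19%, and 23 of 163 on Uextra, or 14.1%, a difference of -6.92 percentage points (-13.8 to -0.219). Median BEAF-32 fold was 3.68 on U and 4.49 on Uextra, beside 2.64 on the Het sequences and 7.88 on the arms. The lowest ROW folds were 1.65 on U and 1.74 on Uextra, and the highest were 29.14 and 32.27. The 32.27-fold peak was also the strongest of the whole ROW list, since no peak on the arms exceeded 29.80-fold. Likewise the strongest BEAF-32 peak of the whole list, at 34.16-fold, was on Uextra, just above the arms' maximum of 34.09-fold.

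**Figure D1:**
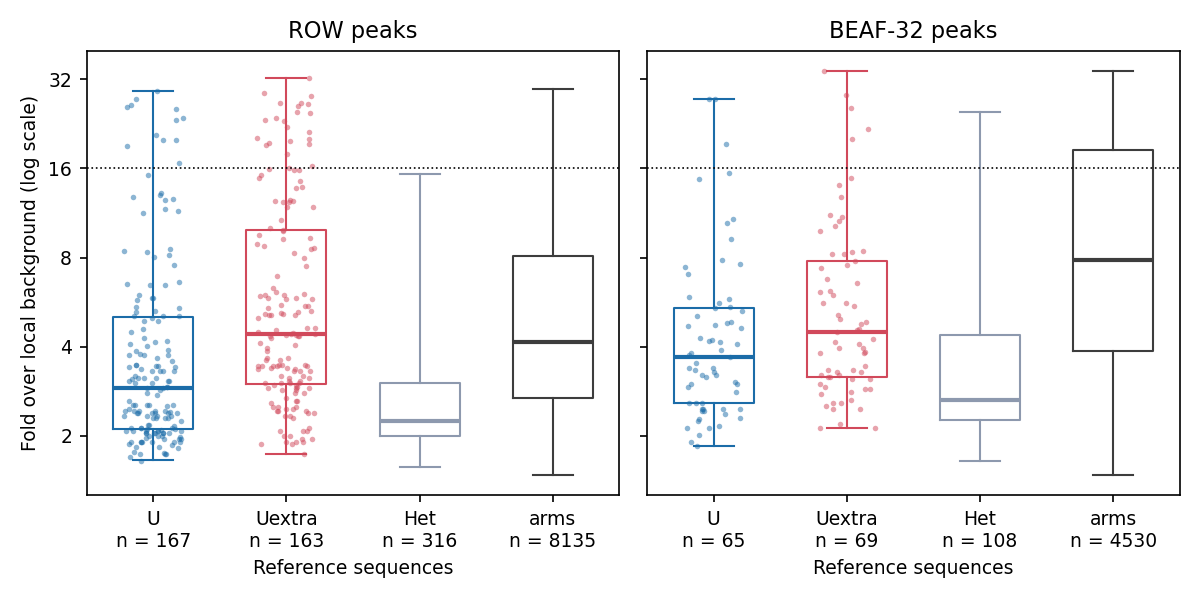
Fold over local background (log scale) of ROW peaks (left) and BEAF-32 peaks (right) on U, Uextra, the Het sequences and the chromosome arms. Boxes show quartiles and median, whiskers reach the lowest and highest peak, points are single peaks on U and Uextra, and the dotted line marks 16-fold. ROW medians are 2.89 on U and 4.42 on Uextra beside 4.16 on the arms, whereas both BEAF-32 medians, 3.68 and 4.49, lie under the arms' 7.88.

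Peaks on Uextra were narrow and isolated. Median ROW width was 536 bp on U and 417 bp on Uextra, beside 575 bp on the arms, and median BEAF-32 width was 483 bp on U and 448 bp on Uextra, beside 567 bp on the arms. Peaks wider than 600 bp made up 42.5% of ROW peaks on U and 15.3% on Uextra, beside 46.1% on the arms. The widest peaks of both lists covered the same place on U, at chrU:5767962-5770577 for ROW (2616 bp, 4.17-fold) and chrU:5767931-5770496 for BEAF-32 (2566 bp, 4.27-fold). Their summits were 299 bp apart. ROW peaks numbered 16.8 per Mb of the span between first and last peak on U and 5.76 per Mb on Uextra, beside 67.7 per Mb on the arms. For BEAF-32 the densities were 6.70 and 2.52 per Mb, beside 37.8 per Mb on the arms.

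The height behind each fold could be read from the lists. MACS2, a peak caller named in the submitters' processing notes, reports the fold as (pileup + 1) divided by (background + 1) and the p-value as a Poisson tail of the same pileup, the number of fragments stacked at the summit. In all 8788 ROW rows and all 4781 BEAF-32 rows, a whole-number pileup met the deposited fold and −log10 p at once, within 0.02 of the step to the next whole number. The implied background never fell under a floor of 22.54 fragments for ROW and 16.39 for BEAF-32. Pileups of ROW peaks ran from 40 to 1500 on U with a median of 71, and from 40 to 1961 on Uextra with a median of 103. The median was 144 on the arms. Pileups of BEAF-32 peaks ran from 31 to 659 on U with a median of 64 and from 36 to 6507 on Uextra with a median of 77, while the arms had a median of 225. PCR duplicates may be among the fragments, so they are not a count of independent molecules, and the total depth per sample is unknown.

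Most peaks on U and Uextra stood on background at the floor. For ROW this was the case for 271 of 330 peaks, 82.1% (77.6 to 85.9), against 2677 of 8135 on the arms, 32.9% (31.9 to 33.9), and 35.5% of the whole list. For BEAF-32 it was 112 of 134, 83.6% (76.4 to 88.9), against 1579 of 4530 on the arms, 34.9% (33.5 to 36.3), and 36.7% of the whole list. Both differences from the arms were near 49 percentage points, 49.2 (44.6 to 53.1) for ROW and 48.7 (41.4 to 54.2) for BEAF-32. Most peaks on the Het sequences were also at the floor, 169 of 316 for ROW, 53.5%, and 64 of 108 for BEAF-32, 59.3%. The differences of U and Uextra from the Het sequences were 28.6 percentage points (21.6 to 35.3) for ROW and 24.3 (13.0 to 35.1) for BEAF-32. U was lower than Uextra in each list. For ROW peaks the share was 72.5% on U and 92.0% on Uextra, a difference of -19.6 percentage points (-27.5 to -11.5), and for BEAF-32 it was 76.9% and 89.9%, a difference of -12.9 percentage points (-25.6 to -0.256). Among strong ROW peaks 17 of 35 were at the floor, 48.6% (33.0 to 64.4), against 9 of 383 on the arms, 2.35% (1.24 to 4.40). At the floor the fold is the pileup on another scale, so equal folds on U and Uextra and on the arms often meant unequal heights. Strong ROW peaks had a median pileup of 622 on U and Uextra and of 870 on the arms.

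**Figure D2:**
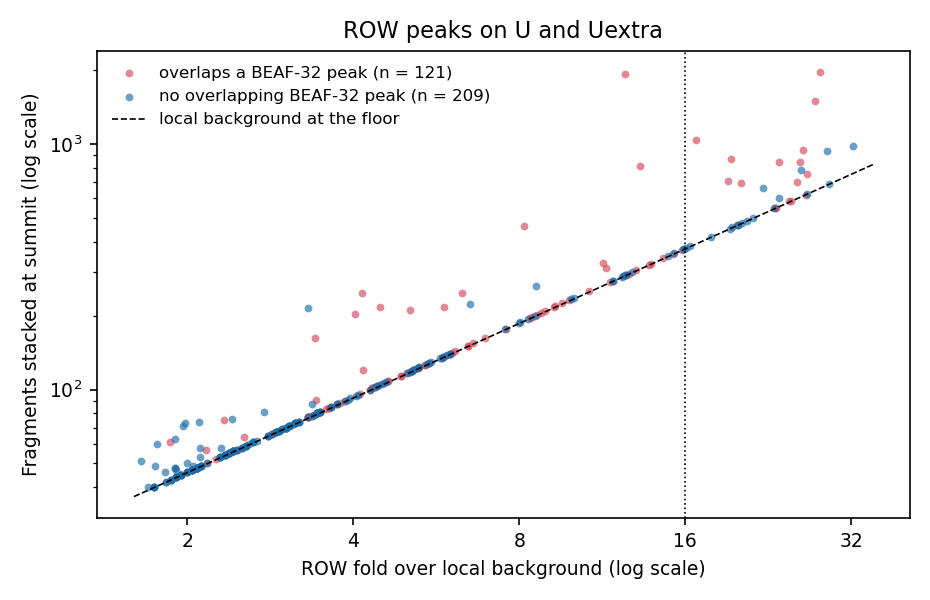
Fragments stacked at the summit against fold over local background, both on log scales, for the 330 ROW peaks on U and Uextra, coloured by overlap with a BEAF-32 peak. The dashed line is where a peak lies if its background is at the floor, and 271 peaks lie on it. The dotted line marks 16-fold.

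Nearly all BEAF-32 peaks on U and Uextra overlapped a ROW peak, while most ROW peaks there had no BEAF-32 partner. With an overlap of at least 1 bp, 123 of 134 BEAF-32 peaks were shared, 91.8% (85.9 to 95.4), against 3664 of 4530 on the arms, 80.9% (79.7 to 82.0), and 81.4% of the whole BEAF-32 list. The difference to the arms was 10.9 percentage points (4.91 to 14.7). On the Het sequences 97 of 108 BEAF-32 peaks were shared, 89.8%, and the interval of the difference of U and Uextra from them, -5.38 to 9.95 percentage points, includes 0. Of the ROW peaks, 121 of 330 were shared, 36.7% (31.6 to 42.0), against 3611 of 8135 on the arms, 44.4% (43.3 to 45.5), and 43.6% of the whole ROW list, a difference of -7.72 percentage points (-12.9 to -2.29). The lower ROW share depended on how sharing was defined: counting only ROW peaks with a BEAF-32 summit no farther than 100 bp, the share was 27.9% on U and Uextra and 25.9% on the arms, a difference of 1.99 percentage points (-2.67 to 7.15). On the Het sequences 28.8% of ROW peaks overlapped BEAF-32. By summits at most 100 bp apart, the BEAF-32 share was 68.7% on U and Uextra, 46.5% on the arms and 41.7% on the Het sequences. The difference was 22.2 percentage points (13.8 to 29.6) from the arms and 27.0 (14.4 to 38.4) from the Het sequences. U and Uextra were close to each other in both shares by overlap. ROW peaks were shared in 57 of 167 cases on U, 34.1% (27.4 to 41.6), and in 64 of 163 on Uextra, 39.3% (32.1 to 46.9), and the interval of the difference, -15.4 to 5.22 percentage points, includes 0. BEAF-32 peaks were shared in 59 of 65 cases on U and in 64 of 69 on Uextra, 90.8% and 92.8%, with an interval of -12.3 to 7.95 percentage points for the difference. The 11 BEAF-32 peaks without ROW ran from 1.84-fold to 14.09-fold with a median of 3.39-fold, and 9 of them had no ROW summit within 1000 bp.

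By overlap of intervals, strong ROW peaks on U and Uextra were shared less often than strong ROW peaks on the arms, which did not hold for close summits. The counts by overlap were 17 of 35, 48.6% (33.0 to 64.4), against 287 of 383 on the arms, 74.9% (70.4 to 79.0), and 72.7% of all strong ROW peaks in the list. The difference was -26.4 percentage points (-42.5 to -9.86). With summits at most 100 bp apart the shares were 15 of 35 on U and Uextra, 42.9%, and 150 of 383 on the arms, 39.2%, a difference of 3.69 percentage points (-12.0 to 20.7). Within U and Uextra the other ROW peaks were shared by overlap in 104 of 295 cases, 35.3% (30.02 to 40.9), and the difference of strong from other peaks, 13.3 percentage points, has an interval of -3.24 to 30.02 that includes 0. On the arms the same difference was 32.1 percentage points (27.4 to 36.3). By close summits the difference of strong from other peaks was 16.8 percentage points (0.968 to 33.7) on U and Uextra and 13.9 (9.07 to 19.0) on the arms.

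Overlap climbed with ROW strength up to 8-fold and then levelled. On U and Uextra 3 of 36 ROW peaks under 2-fold were shared, or 8.33%, 17 of 91 from 2-fold to 3-fold, or 18.7%, and 22 of 60 from 3-fold to 4-fold, or 36.7%. From 4-fold to 8-fold the share was 38 of 67, or 56.7% (44.8 to 67.9), and from 8-fold to 16-fold it was 24 of 41, or 58.5% (43.4 to 72.2). The intervals of those bands overlap that of the strong peaks. On the arms the shares of the same 6 bands were 16.03%, 28.8%, 39.1%, 48.7%, 64.4% and 74.9%.

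**Figure D3:**
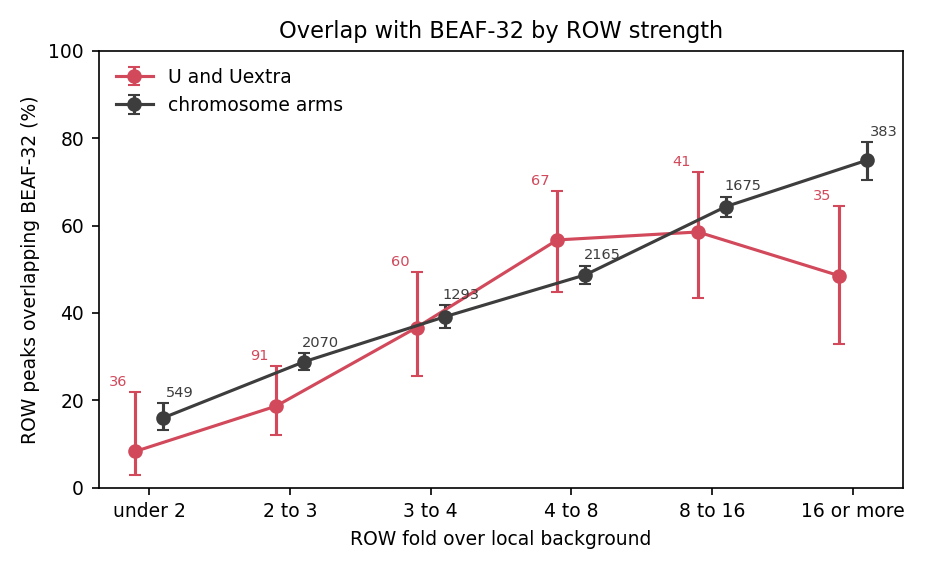
Share of ROW peaks that overlap a BEAF-32 peak, in 6 bands of ROW fold, on U and Uextra and on the chromosome arms. Bars are 95% Wilson intervals and small numbers give the peaks in each band. At 16-fold or more the shares by overlap are 48.6% on U and Uextra and 74.9% on the arms, while by summits at most 100 bp apart, not drawn, they are 42.9% and 39.2%.

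The 18 strong ROW peaks without BEAF-32 stood far from any listed BEAF-32 summit. The nearest one was 7879 bp away at the closest and 962061 bp at the farthest. BEAF-32 peaks were sparse on U and Uextra, and such distances can span joins between scaffolds. The 17 strong ROW peaks with a partner, which overlap a BEAF-32 peak by definition, had a BEAF-32 summit within 168 bp. The strongest ROW peak of the list, chrUextra:6114553-6114904, had 32.27-fold from 983 fragments and no BEAF-32 summit within 115635 bp. It was followed among peaks without a partner by chrU:1680236-1680598 (29.14-fold, 685 fragments) and chrUextra:24549647-24549983 (28.87-fold, 932 fragments). The third of this kind on Uextra was chrUextra:11854740-11855079 at 26.60-fold with 625 fragments. On U the second was chrU:9158932-9159535 at 23.67-fold and the third chrU:9936080-9936585 at 20.69-fold.

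By their medians, strong ROW peaks without a partner were lower and narrower than those with one. Their median pileup was 492, against 709 for the 17 with a partner, and their median width was 517.5 bp, against 621 bp. No intervals were computed for these medians of small groups, which were themselves formed by overlap. Background at the floor was seen at 12 of the 18, against 5 of the 17. On the arms the medians differed less, with 851 fragments and 640 bp for the 96 strong ROW peaks without BEAF-32, against 883 fragments and 685 bp for the 287 with it. By collection, 5 of 12 strong ROW peaks on U and 13 of 23 on Uextra had no partner.

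The BEAF-32 peak under a strong ROW peak could be of almost any strength. Taking the BEAF-32 peak with the closest summit, 5 of the 17 partners were at least 16-fold, 8 were between 4-fold and 16-fold and 4 were under 4-fold, over a range of 2.19-fold to 27.57-fold. At chrU:9151206-9151632 ROW reached 25.51-fold (698 fragments), and the BEAF-32 peak chrU:9151206-9151602 reached 27.57-fold (627 fragments) with its summit on the same base and its start on the same position. At chrU:5288179-5289599 ROW reached 27.54-fold and BEAF-32 27.37-fold, 1 bp apart. By contrast, chrUextra:4368585-4369057, the ROW peak of the greatest pileup here with 1961 fragments at 28.09-fold, had a BEAF-32 partner of 5.98-fold with 103 fragments, 2 bp away. At chrUextra:10344419-10345069 a ROW peak of 26.60-fold had a BEAF-32 partner of 2.19-fold from 37 fragments, 16 bp away. The ROW peaks chrU:8910824-8911441 (26.14-fold) and chrU:9375721-9376474 (25.85-fold) had partners of 3.05-fold and 5.29-fold.

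All 8 strong BEAF-32 peaks had a ROW partner, against 1243 of 1395 on the arms, 89.1%, and the interval of the difference, -21.6 to 12.6 percentage points, includes 0. The strongest, chrUextra:2047447-2048099, had 34.16-fold from 1029 fragments, with a ROW peak of 15.76-fold 8 bp away, just under the strong class. The next, chrUextra:956254-956921, carried 6507 fragments over a background of 229.09, the highest BEAF-32 pileup here, and gave 28.28-fold. Its ROW partner, 87 bp away, was 9.56-fold from 224 fragments. At chrUextra:8511090-8511532 (25.60-fold), chrUextra:3080836-3081614 (21.78-fold) and chrUextra:1484306-1485060 (20.16-fold) the ROW partners were 24.65-fold, 20.17-fold and 19.34-fold, with summits 1, 0 and 9 bp away. On U the BEAF-32 peak chrU:7543866-7545071 (19.41-fold, 1206 bp wide) had a ROW summit 521 bp away at 11.32-fold. The next BEAF-32 peaks on U, under 16-fold, were chrU:4022603-4023251 at 15.50-fold and chrU:444749-445157 at 14.78-fold, both with a strong ROW partner, of 19.11-fold and 23.24-fold.

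The division at 16-fold separates peaks of nearly equal height. The ROW peaks just inside were chrUextra:17210111-17210552 at 16.02-fold with 376 fragments and chrUextra:23766276-23766569 at 16.31-fold with 383 fragments. Those just outside were chrUextra:3418931-3419541 at 15.93-fold with 374 fragments and chrUextra:27806012-27806340 at 15.85-fold with 372 fragments. None of the 4 overlapped a BEAF-32 peak. The exact Poisson interval of the peak with 376 fragments is 339 to 416 and covers the other 3 pileups. It treats fragments as independent and leaves out PCR duplicates and spread between samples.

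Where both proteins had a peak on U and Uextra, their summits lay closer together than on the arms. The 123 overlapping pairs had a median summit distance of 17 bp (95% interval 12 to 26), against 85 bp (82 to 88) over 3680 pairs on the arms. A distance of at most 10 bp was seen in 49 of 123 pairs, 39.8% (31.6 to 48.7), against 274 of 3680 on the arms, 7.45% (6.64 to 8.34). Summits fell on the same base in 9 of 123 pairs and in 16 of 3680 on the arms, and the 97 pairs on the Het sequences had none and a median of 115 bp (87 to 167). U pairs had a median of 33 bp (16 to 71) and Uextra pairs one of 12 bp (7 to 20). All 64 pairs on Uextra had summits within 440 bp, whereas 7 of 59 pairs on U were over 500 bp apart. The largest distance, 933 bp, was at chrU:6338693-6340017, a ROW peak of 4.29-fold with a BEAF-32 partner of 4.08-fold.

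The close summits were found among strong and other peaks. With a strong ROW peak the median distance was 3.5 bp over 18 pairs (1 to 21), and with another ROW peak it was 18 bp over 105 pairs (13 to 41). On the arms those medians were 97 bp and 84 bp. On U the 8 pairs with a strong ROW peak had a median of 36.5 bp (0 to 837), beside 33 bp for its other pairs, and 3 of the 8 had summits within 20 bp. On Uextra all 10 pairs with a strong ROW peak had summits within 16 bp. Among pairs in which both peaks had background at the floor, a split made after seeing the data, the median was 17 bp over 90 pairs on U and Uextra (12 to 30), against 65 bp over 433 pairs on the arms (60 to 74). The intervals of the pairs also coincided more closely, chiefly on Uextra. The overlap covered at least 50% of both peaks in 113 of 123 pairs, 91.9%, against 2958 of 3680 on the arms, 80.4%. By collection, it did so in 50 of 59 pairs on U, 84.7%, and in 63 of 64 on Uextra, 98.4%. No intervals were computed for these shares.

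**Figure D4:**
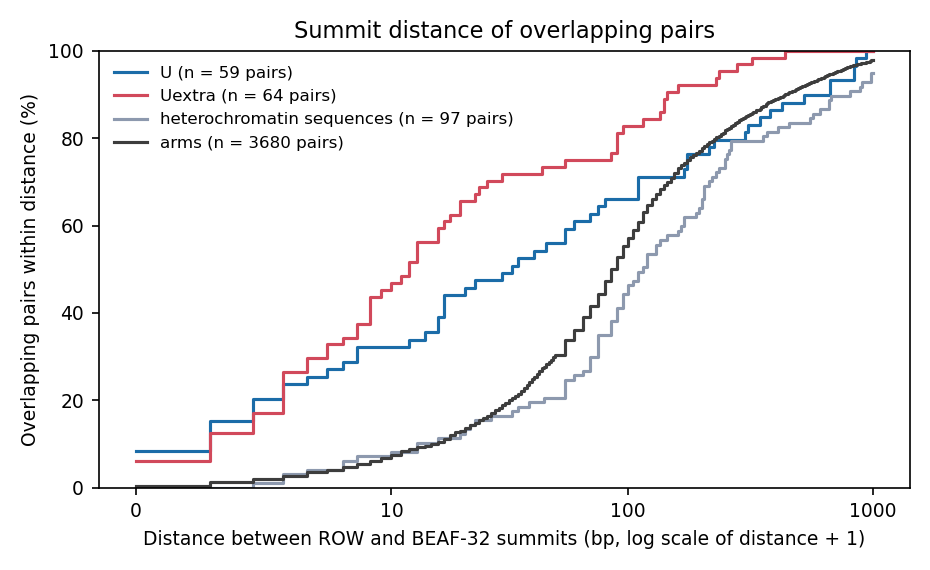
Share of overlapping ROW and BEAF-32 pairs whose summits lie within a given distance, on U, Uextra, the Het sequences and the arms. The distance axis is a log scale of distance + 1. The curves of U and Uextra lie above those of the arms and the Het sequences at short distances, and medians are 33, 12, 115 and 85 bp on U, Uextra, the Het sequences and the arms.

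The ranks of both proteins at shared sites went together among weaker pairs on U and Uextra. Over all pairs, Spearman's rho of the folds was 0.72 across 123 on U and Uextra, 0.66 across 97 on the Het sequences and 0.15 across 3680 on the arms. A split made after seeing the data kept pairs with both peaks under 16-fold, 82.9% of pairs on U and Uextra and 61.9% on the arms. Across the 102 such pairs on U and Uextra, rho was 0.78 and Pearson's r of log2 folds was 0.76. Across 2278 such pairs on the arms, they were 0.09 and 0.09. The Het sequences were nearer to U and Uextra than to the arms in this, with a Pearson's r of 0.65 across 93 such pairs. With background at the floor for both peaks, rho was 0.77 across 90 pairs, against 0.05 across 433 on the arms. Widths had a rho of 0.80 across the 102 pairs, against 0.30 on the Het sequences and 0.31 on the arms. By collection, the rho of widths was 0.66 on U and 0.90 on Uextra. Where the overlap also covered at least 50% of both peaks, it was 0.91 on U and Uextra, 0.78 on the Het sequences and 0.64 on the arms. The relation of the folds did not extend to the 21 pairs with a peak of at least 16-fold in either list, where rho was -0.44. Those pairs were selected for a high value in 1 list or the other, and on the arms 1402 such pairs had -0.30. Pairs come from the same 2 lists and often share a scaffold, so these values describe the pairs and are not replicated measurements.

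**Figure D5:**
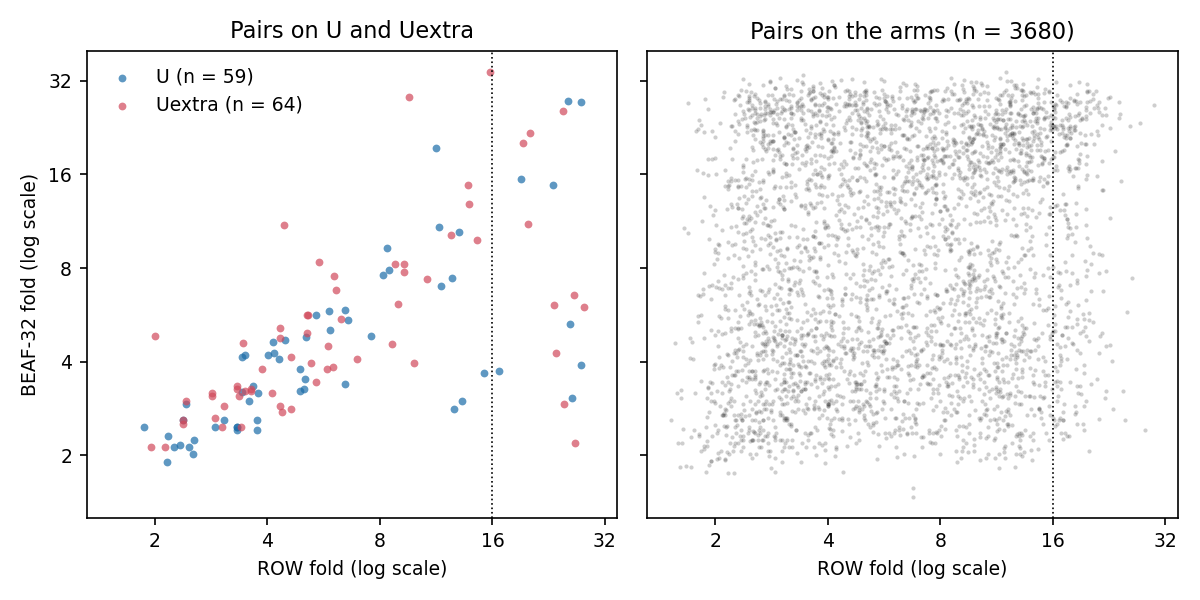
BEAF-32 fold against ROW fold, both on log scales, for overlapping pairs on U and Uextra (left, 123 pairs) and on the arms (right, 3680 pairs). Each point is a pair and the dotted line marks a ROW fold of 16. Left of the dotted line the points on U and Uextra run along a diagonal, with a rho of 0.78 where both folds are under 16, while those on the arms are spread over the whole range. Pairs on the Het sequences, not drawn, had a Pearson's r of 0.65, against 0.76 on U and Uextra and 0.09 on the arms.

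Runs of neighbouring peaks occurred on U and were rare on Uextra. A run is a chain of peaks of 1 list with at most 1000 bp between successive intervals. On U 39 of 167 ROW peaks lay in 18 runs, 23.4% (17.6 to 30.3), and on Uextra 8 of 163 lay in 4 runs, 4.91% (2.51 to 9.38), a difference of 18.4 percentage points (11.1 to 25.8). BEAF-32 had 14 of 65 peaks on U in 6 runs, 21.5% (13.3 to 33.0), and 2 of 69 on Uextra in 1 run, 2.90% (0.799 to 9.97). Over both collections 47 of 330 ROW peaks were in runs, 14.2%, beside 22.5% of the whole ROW list. For BEAF-32 it was 16 of 134, 11.9%, beside 11.5% of its whole list. Median gaps between successive ROW peaks were 20242 bp on U and 73565 bp on Uextra, beside 5726 bp on the arms.

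Runs consisted of few and mostly weak peaks. Of 22 ROW runs 19 had 2 peaks and 3 had 3 peaks, and none held a strong ROW peak. In all, 0 of 35 strong ROW peaks were in runs at this spacing, against 13 of 383 on the arms, 3.39%, a difference of -3.39 percentage points whose interval, -5.72 to 6.59, includes 0. At a wider spacing, 3 of the 35 had another ROW peak with at most 5000 bp between the intervals, against 118 of 383 on the arms. The first of the longest ROW runs, chrU:3334336-3337458, had peaks of 8.56-fold, 2.41-fold and 6.50-fold and no BEAF-32 peak. Another, chrU:5299220-5302084, had 3 ROW peaks of 4.02-fold to 8.16-fold. It coincided with a BEAF-32 run of 3 peaks at chrU:5299220-5302062, of 4.19-fold to 7.62-fold, whose first peak starts on the same base. The first of the longest BEAF-32 runs, chrU:1089245-1092563, had peaks of 3.20-fold, 2.27-fold and 4.80-fold, and the outer 2 overlapped ROW. Of 7 BEAF-32 runs, 1 held a strong BEAF-32 peak. That run, chrU:5288194-5289556, had peaks of 27.37-fold and 3.91-fold, and both overlapped the ROW peak chrU:5288179-5289599. Among peaks in runs, 19 of 47 for ROW overlapped BEAF-32 and 15 of 16 for BEAF-32 overlapped ROW, beside 121 of 330 and 123 of 134 over all peaks on U and Uextra.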

How the data were processed

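Peak lists for ROW and BEAF-32 in S2 cells were used, 1 per antibody, each covering 3 samples. The submitters' processing notes name Bowtie2, SAMtools, MACS2, deepTools and dm3 but give neither versions nor steps. The control library and how samples were combined are not given in the sources used here. In the 10 deposited columns, column 7 was read as the fold ratio at the summit, columns 8 and 9 as −log10 p and −log10 q, and column 10 as the summit offset. The deposited score in column 5 repeats column 9, multiplied by 10 and cut to whole numbers, in every row, and was not used. Pileup and background were solved from columns 7 and 8, and a background within 0.05 of the lowest was called the floor. The overlap, run and pileup steps were tested on simulated data. Python 3.11.15, numpy 2.4.6, pandas 2.3.3, scipy 1.17.1 and matplotlib 3.10.9 were used. The members, the lists, the 16-fold division and the comparisons were chosen with earlier results of these data known. The rule for named peaks took the 5 strongest peaks of each list on U and on Uextra, the 3 strongest strong ROW peaks without BEAF-32, the 3 pairs of highest BEAF-32 fold, the peaks nearest the 16-fold division, the longest runs, the widest peaks and the pairs of smallest and largest summit distance. Other peaks were named after their values were seen.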

Additional observations from a re-analysis of the deposited data

How the results depend on the processing

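No paired analysis was possible because the lists combine the 3 samples of an antibody, which also prevents leaving a sample out. Of 37 recalculations of 8 results, 21 stayed within the 95% interval of the value reported and 16 did not. The cause was not tested, beyond what each setting changes by construction. With summits at most 100 bp apart, shares were 27.9% of ROW, 68.7% of BEAF-32 and 26.1% of other ROW peaks, and ROW peaks were then no longer shared less often than on the arms, where the share was 25.9% of all and 39.2% of strong ROW peaks. When 50% or more of both intervals had to overlap, 84.3% of BEAF-32 peaks were shared. With ROW peaks of at least 4-fold, shares were 55.2% for ROW and 59.7% for BEAF-32, and the median summit distance was 10.5 bp. With peaks at the background floor alone, an alternative added after seeing the data, 80.4% of BEAF-32 peaks were shared. Runs at gaps of 500 bp and 5000 bp held 7.88% and 30.6% of ROW peaks and 5.97% and 20.1% of BEAF-32 peaks, and with −log10 q of at least 10 they held 10.0% of ROW peaks. Strong ROW peaks were 16.4% with a limit of 12-fold, 7.27% with 20-fold and 15.9% once peaks with a −log10 q under 10 were dropped. The share of strong ROW peaks that overlapped BEAF-32 ranged from 42.9% to 57.1% over 7 settings. The weakest peaks on U and Uextra rest on 40 fragments for ROW and 31 for BEAF-32.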

Other observations

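Peaks were concentrated at the start of Uextra. The first 5 Mb held 94 ROW and 44 BEAF-32 peaks, and the next 5 Mb held 24 and 9. The following 3 bands of 5 Mb held 12, 12 and 7 ROW peaks and 6, 5 and 1 BEAF-32 peaks, and the last band, from 25 Mb on, held 14 and 4. Of the 94 ROW peaks in the first band 45.7% overlapped BEAF-32 and 7 were strong. Of the 69 beyond it, 16 were strong. On U the band from 8 Mb to 10 Mb held 7 of the 12 strong ROW peaks among its 26 ROW peaks, and the bands from 2 Mb to 4 Mb and from 6 Mb to 8 Mb held none. Positions here follow the order in which scaffolds were joined.

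Boundaries of both lists coincided in some pairs: in 7 of 123 pairs on U and Uextra the peaks shared their start or their end to the base, 5.69%, against 24 of 3680 pairs on the arms, 0.652%. No pair shared both. The strong ROW peaks chrU:4880229-4880911 and chrU:9322505-9323154 both had 19.93-fold and a −log10 q of 423.19, each from 468 fragments over background at the floor. With background at the floor the fold and −log10 q follow from the pileup, so the match is of the pileup alone. Equal pileups also occurred among other peaks at the floor.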
